A study of Mus musculus with 5 samples.

Results

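Sterol and fatty acid synthesis genes are 28 genes that were matched by symbol in the gene lists of the unsorted libraries, out of 28001 features in each. They comprise 17 enzymes of cholesterol synthesis, 4 sterol regulators and transporters and 7 enzymes of fatty acid synthesis, and all 28 were found. Dorsal skin of female mice had been dissociated and captured as single cells, with a chemistry that tags the 3′ ends of transcripts with unique molecular identifiers (UMIs). Libraries Mut1 and Mut2 came from Lepr-Cre;mTmG;Smo+/- mice at postnatal day 46, and libraries WT1 and WT2 from Lepr-Cre;mTmG mice at postnatal day 46. The fifth library held GFP-positive cells sorted from Lepr-Cre;mTmG mice at postnatal day 50. All mice thus carried Lepr-Cre, a recombinase driven by the leptin receptor locus, and mTmG, a reporter that marks cells with membrane GFP, in place of tomato, once recombined. Smo encodes the membrane protein that relays Hedgehog signals. The labels describe both libraries of a genotype as technical replicates, so every p-value on genotype measures the spread between preparations and not that between mice. Comparisons of cell groups used the same 4 libraries, so their p-values do not measure the spread between mice of a genotype either. How the Smo allele was altered is not given in the sources used here. The protocol text of the labels writes the control with Smo after the reporter, whereas the sample titles do not.

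Animal cells build cholesterol from acetyl-CoA by way of mevalonate, farnesyl diphosphate, squalene and lanosterol, and they build fatty acids from the same precursor. The transcription factors encoded by Srebf1 and Srebf2 drive both branches, and Insig1 encodes a membrane protein that holds their precursors in the endoplasmic reticulum when sterols are plentiful. In skin these lipids supply the water barrier of the upper epidermis, the secretion of sebaceous glands and the myelin sheaths of nerves.

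Sterol-regulated factors are known to bind near the starts of many of these genes, so promoter windows of 300 bases (250 before and 50 after the annotated start) were read from RefSeq for build GRCm38.p6. Windows were found for 22 of the 28 genes. The sterol response element was searched as TCACNCCA and the box bound by NF-Y as CCAAT, each on both strands; the end of the first can overlap the start of the second. TCACNCCA was present for 3 of the 22 genes (13.6%), beside 4.97% of the 27025 genes with a window. CCAAT was present for 20 of the 22 genes (90.9%), beside 41.1% of all genes with a window. The windows with TCACNCCA are printed with the matched letters in capitals, because they hold the element searched for; their genes, a regulator and 2 enzymes, are set side by side below between the kinds of Schwann cell.
Hmgcs1, chr13:119690101-119690400, plus strand: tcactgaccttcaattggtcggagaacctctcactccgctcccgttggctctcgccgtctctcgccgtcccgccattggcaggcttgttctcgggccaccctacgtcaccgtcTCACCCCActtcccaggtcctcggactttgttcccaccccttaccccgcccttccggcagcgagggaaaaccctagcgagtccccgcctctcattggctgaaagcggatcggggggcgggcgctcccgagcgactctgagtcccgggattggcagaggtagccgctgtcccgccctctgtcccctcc
Msmo1, chr8:64733529-64733828, minus strand: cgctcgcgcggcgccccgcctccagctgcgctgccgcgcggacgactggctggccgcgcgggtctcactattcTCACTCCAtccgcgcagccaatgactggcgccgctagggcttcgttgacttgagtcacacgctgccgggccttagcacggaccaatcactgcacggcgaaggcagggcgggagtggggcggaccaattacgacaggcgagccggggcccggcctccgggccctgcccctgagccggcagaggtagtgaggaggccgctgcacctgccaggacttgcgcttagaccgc
Srebf2, chr15:82147019-82147318, plus strand: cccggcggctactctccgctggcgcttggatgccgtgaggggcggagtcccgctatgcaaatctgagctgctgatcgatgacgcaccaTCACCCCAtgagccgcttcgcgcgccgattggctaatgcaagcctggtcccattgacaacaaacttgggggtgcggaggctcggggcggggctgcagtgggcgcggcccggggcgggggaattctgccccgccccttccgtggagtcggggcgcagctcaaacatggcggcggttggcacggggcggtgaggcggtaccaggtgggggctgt
A match describes the letters of a window and is not a site of binding, and the absence of a match says only that these letters are not in this window.

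After filters, 8148 and 8418 cells of Mut1 and Mut2 and 7912 and 8027 cells of WT1 and WT2 were kept. Median depth per kept cell was 8370.5 and 8251 UMIs in Mut1 and Mut2, against 9399 and 9754 UMIs in WT1 and WT2. Each pair of unsorted libraries shared between 117 and 192 barcodes, which were removed. Cells were assigned with marker genes, none of them a synthesis gene, to 17 groups, each of 20 or more cells per unsorted library, while 20.5% of kept cells were assigned to no type. A further 12.7% were keratinocytes without a state, and these and the cells of types under that number were left out too. Among defining markers, suprabasal cells averaged 7280 CPM (a gene's UMIs scaled to all UMIs of that group and library) of Krt10 and dermal papilla cells 1211 CPM of Crabp1. Sebaceous gland cells, a main site of lipid synthesis, numbered 2 and 6 in Mut1 and Mut2 and 11 and 13 in WT1 and WT2 and were not analysed. Smo stood at 46.2 and 44.98 CPM in dermal papilla cells of Mut1 and Mut2, against 37.9 and 39.0 CPM in those of WT1 and WT2, and was thus not lower in the libraries labelled Mut. Since the altered part of the gene is not known, 3′ tags of Smo do not check the labels, and Mut and WT are used here as the labels give them.

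Levels are given first as CPM of the UMIs summed over the cells of a group, without a test, and orders are over the 17 groups with Schwann cells kept as 1. The 17 cholesterol synthesis genes together took their largest share in suprabasal keratinocytes, the differentiating cells above the basal layer, at 1159 ± 34.97 CPM (SD over 4 libraries). Single libraries gave 1112 and 1192 CPM in Mut1 and Mut2 and 1156 and 1178 CPM in WT1 and WT2, above every library of the other groups. Dermal papilla cells, the signalling mesenchyme at the base of the follicle, came next among the 17 groups at 858 ± 120.4 CPM, and Langerhans cells, the antigen-presenting cells of the epidermis, followed at 655 ± 105 CPM. The ranges of papilla and Langerhans cells overlapped, and so did those of every neighbouring pair further down the order as far as pericytes at 336 ± 43.4 CPM. T cells (275 ± 29.2 CPM), blood endothelium (204 ± 34.6 CPM) and lymphatic endothelium (196 ± 22.0 CPM) stood lowest, and the endothelial groups overlapped. Myelinating Schwann cells taken alone, described below, had 925 ± 111 CPM, with a range that overlapped that of the papilla.

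**Figure D1:**
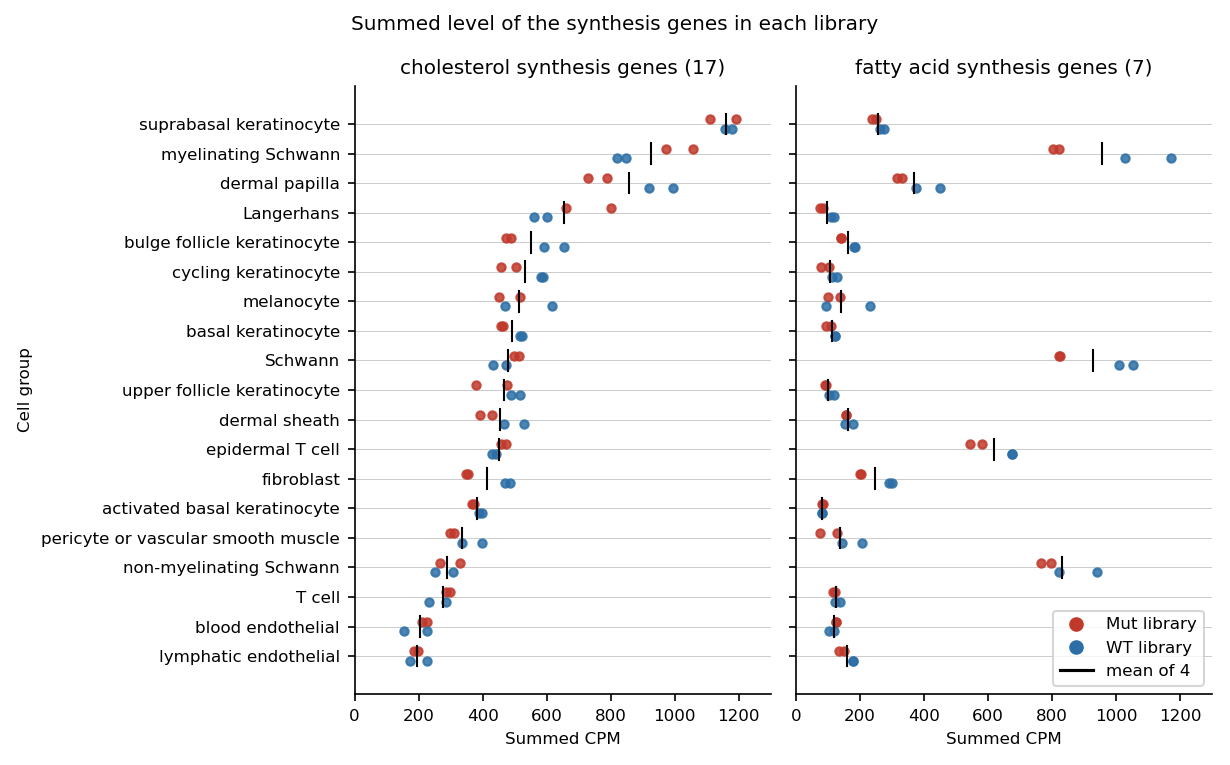
Summed CPM of the 17 cholesterol synthesis genes (left) and the 7 fatty acid synthesis genes (right) in each cell group, with 1 point per library (Mut red, WT blue) and a vertical bar at the mean of 4; the Schwann subgroups are shown beside the whole Schwann group. Suprabasal keratinocytes lead on the left (1159 CPM) and the Schwann groups on the right (927 CPM for the whole group).

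The fatty acid genes were ordered differently. Schwann cells, the glia of peripheral nerves, led at 927 ± 121 CPM, followed by epidermal T cells at 619 ± 66.5 CPM. Dermal papilla cells came next at 368 ± 59.4 CPM, and then suprabasal keratinocytes at 256 ± 17.2 CPM. Neighbouring ranges among these groups did not overlap, but the suprabasal range overlapped that of fibroblasts (248 ± 53.6 CPM). Most of the Schwann sum was Scd1 (529.5 ± 85.9 CPM) and Scd2 (253 ± 39.1 CPM). Most of the epidermal T cell sum was Elovl6 (469 ± 46.1 CPM). Activated basal keratinocytes stood lowest at 82.0 ± 2.09 CPM, within the range of Langerhans cells at 97.5 ± 19.6 CPM. The sum over the 4 regulators and transporters was highest in dermal papilla cells at 232 ± 35.5 CPM and lowest in activated basal keratinocytes at 70.4 ± 5.76 CPM.

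Single genes peaked in different cells. With Schwann cells kept as 1 group, 11 of the 28 genes had their highest mean in dermal papilla cells, 6 in suprabasal keratinocytes, 5 in Schwann cells, and 2 each in epidermal T cells, Langerhans cells and melanocytes. Of the papilla genes, only Hsd17b7 (63.9 ± 2.94 CPM) had a range clear of the group ranked next, dermal sheath cells (47.3 ± 5.06 CPM). The 6 of suprabasal cells were all cholesterol enzymes: Fdps (farnesyl diphosphate synthase, chr3:89093588-89101959 in GRCm38), Fdft1 (squalene synthase), Cyp51 (lanosterol demethylase), Msmo1 (methylsterol monooxygenase), Sc5d (sterol desaturase) and Dhcr7 (a sterol reductase at the end of the pathway). For Fdps, Cyp51, Msmo1 and Sc5d, no library of the group ranked next reached the suprabasal range. Fdps had 277 and 309 CPM in suprabasal cells of Mut1 and Mut2 and 308 and 321 CPM in those of WT1 and WT2, while papilla cells, ranked next, averaged 118 ± 38.3 CPM. Where Schwann cells were split, 4 of the genes placed in papilla or suprabasal cells had a higher mean in myelinating Schwann cells: Hmgcs1 had 254 ± 63.1 CPM there, against 150.4 ± 21.8 CPM in the papilla, and Srebf2 had 108 ± 5.80 CPM, against 75.0 ± 13.7 CPM in the papilla. Msmo1 had 189.8 ± 31.7 CPM in myelinating cells, against 181 ± 9.38 CPM in suprabasal cells, and Acaca had 29.4 ± 5.76 CPM, against 25.4 ± 3.19 CPM in the papilla. The ranges overlapped for Msmo1 and Acaca and not for Hmgcs1 and Srebf2.

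In epidermal T cells, the resident T cells of the mouse epidermis, the genes were unevenly placed. Elovl6 (chr3:129532355-129638495), which elongates fatty acids of palmitate length, had 448 and 414 CPM in epidermal T cells of Mut1 and Mut2 and 512 and 502 CPM in those of WT1 and WT2. Its next highest group, the dermal papilla, averaged 80.7 ± 21.3 CPM, and other T cells averaged 21.9 ± 9.20 CPM, so that no range overlapped that of epidermal T cells. Mvk, which encodes mevalonate kinase, was also highest there, at 50.6 ± 3.31 CPM, against 24.5 ± 3.53 CPM in suprabasal keratinocytes and 8.21 ± 1.92 CPM in other T cells. Fdft1 and Mvd, the decarboxylase of the mevalonate branch, were instead at the lowest of their 17 means in epidermal T cells, at 3.48 ± 0.492 CPM and 1.81 ± 0.668 CPM.

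The regulators had orders of their own. Insig1 was highest in dermal papilla cells (98.9 ± 8.96 CPM) and fibroblasts (79.2 ± 12.6 CPM), whose ranges overlapped, and lowest in activated basal keratinocytes (2.45 ± 0.168 CPM), a span of 40.4-fold. Srebf2 spanned 3.59-fold, with 75.0 ± 13.7 CPM in dermal papilla cells and 20.9 ± 5.68 CPM in lymphatic endothelium, and Srebf1 was highest in Schwann cells (41.3 ± 8.23 CPM). Both overlapped the group ranked next, melanocytes (73.6 ± 23.4 CPM) for Srebf2 and dermal papilla cells (30.7 ± 6.79 CPM) for Srebf1. Stard4, which carries sterols between membranes, had its highest mean in dermal papilla cells (27.5 ± 7.91 CPM), overlapping Langerhans cells (25.7 ± 14.0 CPM). Pmvk (phosphomevalonate kinase) peaked in Langerhans cells at 97.0 ± 12.4 CPM, and Idi1 (isopentenyl-diphosphate isomerase) overlapped between Langerhans cells (122 ± 33.3 CPM) and suprabasal keratinocytes (121 ± 7.47 CPM). Acly and Acss2, which supply acetyl-CoA from citrate and from acetate, had their highest means in dermal papilla cells. So did Acaca (acetyl-CoA carboxylase), which commits acetyl-CoA to fatty acids, while Fasn, the fatty acid synthase, was highest in Schwann cells. For each of these genes the range overlapped that of the group ranked next.

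**Figure D2:**
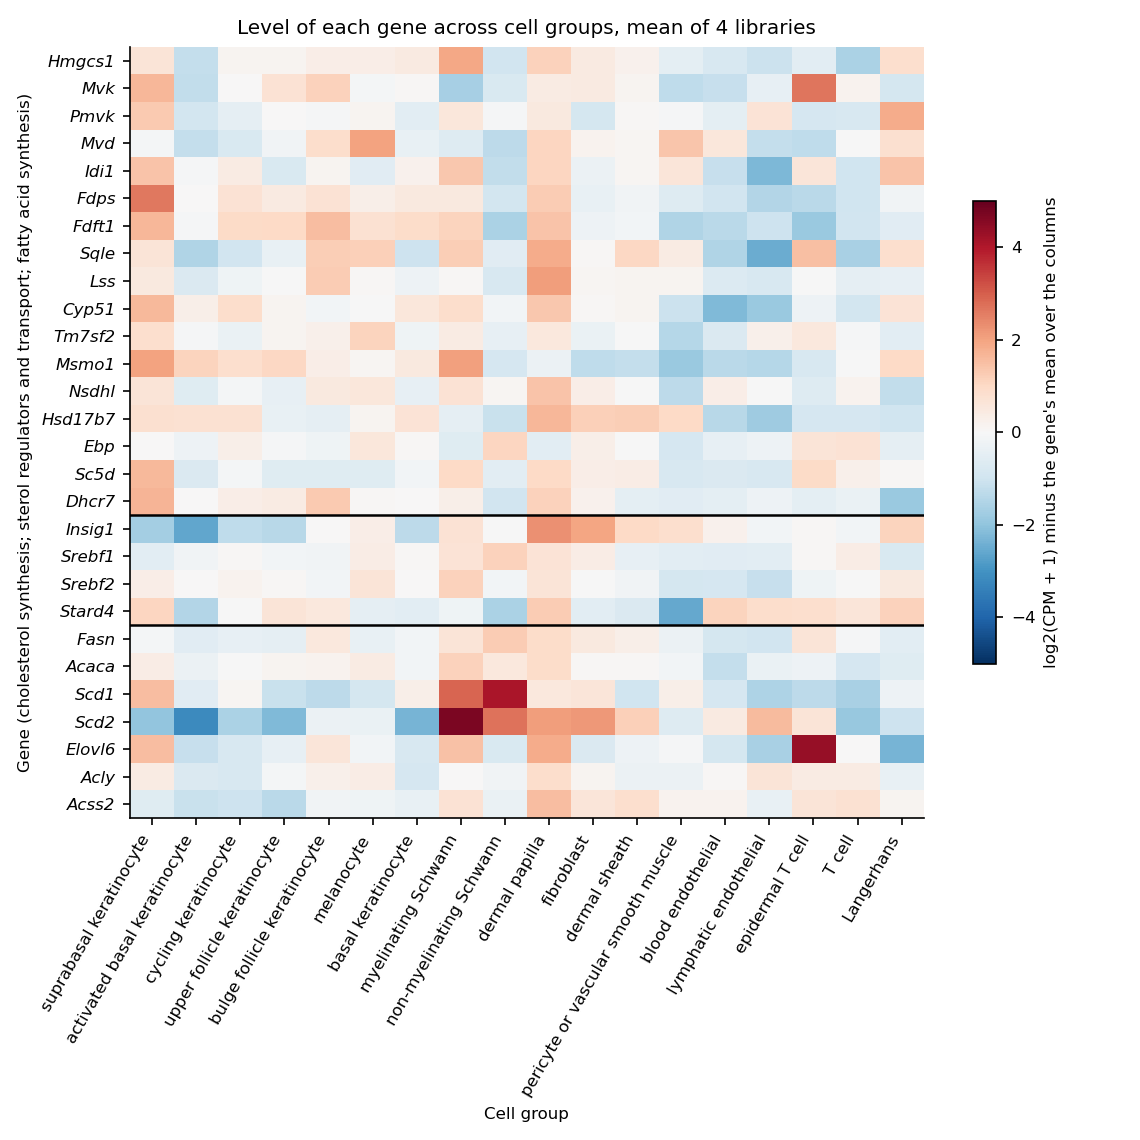
Mean level of each gene over 4 libraries in each cell group, with Schwann cells split in myelinating and non-myelinating, as log2(CPM + 1) minus the gene's own mean over the columns, so colours compare groups within a row only. Elovl6 stands out in epidermal T cells (469 CPM), Scd1 and Scd2 in the Schwann columns (529.5 and 253 CPM over all Schwann cells) and Fdps in suprabasal keratinocytes (304 CPM).

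Over the 17 group means, which share libraries, single genes followed the summed level of the other cholesterol enzymes to different degrees (Pearson correlation of log2 levels, given as a description). The coefficient was 0.92 for Cyp51, 0.79 for Fdps and 0.77 for Idi1, but 0.18 for Mvd and -0.03 for Ebp. Srebf2 had 0.79, Srebf1 0.16 and Scd2 -0.11. Among 5738 genes with a mean of at least 20 CPM, the 5 most like the summed cholesterol level were Ten1 (0.79), Lgals3 (0.73), Hsd17b12 (0.72), Cep170b (0.71) and Ykt6 (0.71).

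The first comparison between groups set suprabasal against basal keratinocytes, the dividing layer they arise from, with the library as a block. Of the 28 genes, 21 rose in suprabasal cells and 0 fell, beside 22.3% of all genes tested called higher and 29.3% called lower. A gene was called, here and below, where edgeR's quasi-likelihood test gave a Benjamini-Hochberg adjusted p under 0.05 over all genes tested and the log2 fold change was at least 0.5 in size; CPM beside a fold change carry the test's TMM scaling. The median log2 fold change was 1.38 over the 28 genes and -0.03 over all genes tested. By role, 14 of the 17 cholesterol enzymes, 5 of the 7 fatty acid enzymes and 2 of the 4 regulators and transporters rose. The count was 21 with each library left out in turn and with DESeq2. When groups were taken from clusters, the calls of Mvd, Scd2 and Srebf2 were lost. The log2 scaling factor of suprabasal cells minus that of basal cells was -0.25. A lower factor gives higher scaled CPM, so the scaling raised log2 fold changes by that size relative to plain CPM. Median depth was 20965.5 UMIs per cell in suprabasal and 12777.5 UMIs in basal cells, and the part of depth in these differences was not tested.

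Fdps had 299.9, 336, 337 and 352 CPM in suprabasal cells of Mut1, Mut2, WT1 and WT2, against 48.5, 61.1, 71.4 and 73.2 CPM in basal cells (log2 fold change 2.38, SE 0.06, edgeR adjusted p = 9.55e-16). Pmvk had 64.6, 72.5, 77.1 and 75.2 CPM in suprabasal cells and 16.4, 14.6, 15.3 and 18.4 CPM in basal cells (log2 fold change 2.16, SE 0.07, edgeR adjusted p = 4.86e-14). Sc5d had 61.9, 63.6, 62.4 and 58.9 CPM in suprabasal cells and 14.4, 15.2, 13.1 and 14.7 CPM in basal cells (log2 fold change 2.11, SE 0.07, edgeR adjusted p = 3.22e-14). For these genes every suprabasal library lay above every basal one. Sqle (squalene epoxidase) rose by 2.09, Dhcr7 by 2.09, Mvk by 1.96, Tm7sf2, a sterol reductase, by 1.80 and Msmo1 by 1.75. Nsdhl, a sterol dehydrogenase, rose by 1.48, Idi1 by 1.46, Cyp51 by 1.29, Lss (lanosterol synthase) by 1.25, Fdft1 by 1.01 and Mvd by 0.66. The cholesterol enzymes that were not called had log2 fold changes of 0.42 for Hmgcs1 (HMG-CoA synthase), 0.36 for Hsd17b7 (a sterol ketone reductase) and 0.24 for Ebp (sterol isomerase).

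In the fatty acid branch Elovl6 had 68.0, 70.2, 76.7 and 68.9 CPM in suprabasal cells, against 11.1, 9.48, 10.9 and 12.3 CPM in basal cells (log2 fold change 2.68, SE 0.07, edgeR adjusted p = 5.74e-15), and no library overlapped. The rises of Acly by 1.53, Scd1 by 1.49, Acaca by 0.79 and Scd2 by 0.73 were smaller; Scd1 and Scd2 are stearoyl-CoA desaturases, which introduce a double bond. Fasn was not called, with 25.7, 25.8, 24.6 and 26.3 CPM in suprabasal cells and 20.9, 19.4, 21.4 and 21.3 CPM in basal cells (log2 fold change 0.30, SE 0.07), nor was Acss2 (SE 0.24). Among the regulators, Stard4 rose by 1.96 and Srebf2 by 0.57. Insig1 had 5.37, 6.81, 5.99 and 5.02 CPM in suprabasal cells and 6.37, 7.30, 6.95 and 6.46 CPM in basal cells (log2 fold change -0.24, SE 0.12, edgeR adjusted p = 0.0884), and Srebf1 had a log2 fold change of -0.39 (SE 0.08), below the fold minimum.

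Neighbouring lipid pathways were read from 3 lists. Of the 14 genes of epidermal barrier lipids, 13 were tested, 10 rose and 0 fell, with Abca12, the lipid transporter of lamellar granules, at 616, 618, 569 and 570.3 CPM in suprabasal cells, against 37.8, 40.6, 40.2 and 37.2 CPM in basal cells. Of the 16 genes of fatty acid elongation, desaturation and glyceride synthesis, 9 were tested, 5 rose and 2 (Agpat2 and Lpin1) fell. The elongase Elovl4 had 447, 423, 439.6 and 409.8 CPM in suprabasal cells and 4.89, 3.42, 3.84 and 3.81 CPM in basal cells (log2 fold change 6.76, SE 0.07, edgeR adjusted p = 1.41e-20). Of the 15 genes of sterol sensing, uptake and efflux, 13 were tested, 4 (Mbtps2, Abca1, Acat2 and Abcg1) rose and 2 (Scarb1 and Mylip) fell. Beside the counts of these lists, 22.3% of all genes tested were called higher and 29.3% lower, so the sterol sensing counts do not set that list apart.

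In activated basal keratinocytes, which express wound and alarm genes such as Krt6a, 1 synthesis gene rose and 8 fell of 26 tested, beside 14.1% of all genes tested called higher and 22.2% called lower. Hmgcs1 had 31.0, 32.4, 27.4 and 29.9 CPM in activated cells of Mut1, Mut2, WT1 and WT2, against 81.5, 76.9, 92.5 and 93.1 CPM in basal cells (log2 fold change -1.51, SE 0.07, edgeR adjusted p = 4.52e-14). Msmo1 had 102, 106, 104 and 106 CPM in activated cells and 58.0, 59.1, 59.6 and 62.6 CPM in basal cells (log2 fold change 0.80, SE 0.05, edgeR adjusted p = 5.56e-12). These enzymes of 1 pathway differed in direction, and the groups overlapped in neither. Falls were also called for Mvk by 1.42, Insig1 by 1.40, Scd2 by 1.08, Stard4 by 0.97, Mvd by 0.87, Fdft1 by 0.83 and Scd1 by 0.72. The log2 scaling factor of activated minus basal cells was -0.18, which raised log2 fold changes by that size relative to plain CPM. Activated cells had a median of 36346.5 UMIs per cell and basal cells 12777.5, and the part of depth in these differences was not tested.

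Bulge keratinocytes, which include stem cells of the follicle, had 11 genes higher and 6 lower of 27 tested, beside 29.4% of all genes tested called higher and 24.3% called lower. The log2 scaling factor of bulge minus basal cells was 0.27. It lowered log2 fold changes by that size, so falls near the fold minimum are smaller in plain CPM. Median depth was 9168 UMIs per cell in bulge and 12777.5 UMIs in basal cells, and its part was not tested. Sqle had 54.7, 50.5, 78.6 and 67.9 CPM in bulge cells, against 12.4, 22.3, 10.9 and 13.7 CPM in basal cells (log2 fold change 2.15, SE 0.21, edgeR adjusted p = 3.13e-06). Scd2 had 12.9, 7.62, 19.6 and 17.4 CPM in bulge cells and 2.13, 2.23, 4.39 and 4.75 CPM in basal cells (log2 fold change 2.07, SE 0.19, edgeR adjusted p = 2.30e-06). Scd1 had 9.19, 8.82, 11.9 and 15.8 CPM in bulge cells and 38.2, 32.7, 53.5 and 50.7 CPM in basal cells (log2 fold change -1.93, SE 0.13, edgeR adjusted p = 1.71e-07). The desaturases thus differed in direction, and no library of one group reached the other in these genes. The other genes that rose were Lss by 1.61, Elovl6 by 1.25, Mvd by 1.21, Dhcr7 by 1.19, Insig1 by 1.17, Mvk by 0.90, Stard4 by 0.90, Acly by 0.85 and Nsdhl by 0.81, and the others that fell were Hsd17b7 by 1.44, Cyp51 by 1.01, Sc5d by 0.74, Ebp by 0.56 and Srebf1 by 0.55.

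Upper follicle keratinocytes had 5 genes higher and 5 lower of 26 tested, beside 18.4% of all genes tested called higher and 16.6% called lower. Stard4 had 19.4, 12.9, 18.7 and 18.5 CPM in upper follicle cells, against 7.28, 5.16, 9.02 and 8.14 CPM in basal cells (log2 fold change 1.21, SE 0.12, edgeR adjusted p = 1.83e-06). Scd1 had 8.997, 12.0, 18.4 and 17.5 CPM in upper follicle cells and 35.6, 30.3, 49.5 and 46.9 CPM in basal cells (log2 fold change -1.50, SE 0.11, edgeR adjusted p = 5.90e-08), with no overlap in either gene. Rises of Sqle by 0.74, Mvk by 0.69, Acly by 0.69 and Pmvk by 0.53 and falls of Hsd17b7 by 1.14, Idi1 by 1.05, Sc5d by 0.53 and Cyp51 by 0.51 were called, though the value of Sc5d was 0.05 when groups were taken from clusters. In cycling keratinocytes Scd2 rose by 0.81 (SE 0.27) and Stard4 by 0.51 (SE 0.14), and 0 fell of 27 tested, beside 8.77% of all genes tested called higher and 4.10% called lower; DESeq2 called 0, and the count was 1 without Mut2, 1 without WT1 and 0 without WT2. Melanocytes, the pigment cells, had 5 genes higher (Mvd by 2.31, Sqle by 2.04, Scd2 by 1.96, Insig1 by 1.40 and Acly by 0.90) and 4 lower (Scd1 by 1.67, Idi1 by 1.16, Cyp51 by 0.99 and Msmo1 by 0.83) than basal keratinocytes of 25 tested, beside 14.3% of all genes tested called higher and 18.7% called lower. Only 107 melanocytes were available, and the count of 9 was 5 with DESeq2, 5 without WT1 and 5 without WT2. The log2 scaling factor of melanocytes minus basal cells was 0.39, which lowered log2 fold changes by that size relative to plain CPM. Median depth was 13340 UMIs per cell in upper follicle cells, 25512 UMIs in cycling cells and 4671 UMIs in melanocytes, against 12777.5 UMIs in basal cells. The part of depth in these differences was not tested.

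Dermal papilla cells were set against fibroblasts, the main mesenchymal cells of the dermis. In the papilla 15 genes rose and 1 fell of 28, beside 23.8% of all genes tested called higher and 26.7% called lower, and 11 of the 15 were cholesterol enzymes. The median log2 fold change was 0.67 over the 28 genes. The log2 scaling factor of papilla cells minus that of fibroblasts was 0.35, which lowered log2 fold changes by that size relative to plain CPM. Median depth was 6755.5 UMIs per cell in the papilla and 9280 UMIs in fibroblasts, and its part in these differences was not tested. Elovl6 had 58.8, 56.2, 75.3 and 94.7 CPM in papilla cells of Mut1, Mut2, WT1 and WT2, against 13.9, 13.6, 16.6 and 14.0 CPM in fibroblasts (log2 fold change 2.25, SE 0.13, edgeR adjusted p = 4.93e-06). Lss had 6.98, 8.32, 19.9 and 22.6 CPM in papilla cells and 2.31, 2.85, 5.20 and 4.66 CPM in fibroblasts (log2 fold change 1.86, SE 0.18, edgeR adjusted p = 5.84e-05). Every papilla library lay above every fibroblast library in both genes, and the WT papilla libraries were highest. Other rises were Stard4 by 1.53, Sqle by 1.48, Fdft1 by 1.42, Fdps by 1.32, Idi1 by 1.08, Pmvk by 1.03 and Cyp51 by 0.97, with Nsdhl by 0.83, Dhcr7 by 0.72, Msmo1 by 0.68, Acss2 by 0.68, Mvd by 0.66 and Acaca by 0.57 smaller. Ebp fell, with 25.8, 24.96, 18.3 and 17.6 CPM in papilla cells and 46.6, 50.7, 45.8 and 52.3 CPM in fibroblasts (log2 fold change -1.17, SE 0.13, edgeR adjusted p = 1.23e-04). Insig1, high in both groups, was not called (SE 0.08, edgeR adjusted p = 0.825). Of the 15 genes of sterol sensing, uptake and efflux, 3 (Nr1h3, Scarb1 and Acat2) rose and 5 (Soat1, Abca1, Mbtps1, Npc2 and Abcg1) fell; Abca1, which exports cholesterol, had 58.2, 53.7, 39.3 and 35.4 CPM in papilla cells and 132, 118, 102 and 107 CPM in fibroblasts (log2 fold change -1.31, SE 0.10, edgeR adjusted p = 1.45e-05).

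Between Schwann cells and fibroblasts 5 genes rose and 8 fell of 26 tested, beside 23.9% of all genes tested called higher and 27.6% called lower. The log2 scaling factor of Schwann cells minus that of fibroblasts was 0.30. It lowered log2 fold changes by that size, so falls near the fold minimum are smaller in plain CPM. Scd1 (chr19:44394455-44407879) had 421, 414, 574 and 496 CPM in Schwann cells of Mut1, Mut2, WT1 and WT2, against 39.4, 39.9, 61.3 and 76.6 CPM in fibroblasts (log2 fold change 3.18, SE 0.11, edgeR adjusted p = 9.33e-14). Scd2 (chr19:44293674-44306864), its neighbour and paralogue, had 198, 204, 239.9 and 271 CPM in Schwann cells and 75.8, 77.6, 129 and 119 CPM in fibroblasts (log2 fold change 1.21, SE 0.09, edgeR adjusted p = 2.36e-09). Neither gene's groups overlapped, but how reads that fit both paralogues were counted is not given in the sources used here. The other rises were Msmo1 by 1.72, Pmvk by 0.83 and Elovl6 by 0.77, and the falls were Hsd17b7 by 2.41, Mvk by 2.15, Insig1 by 2.05, Mvd by 1.603, Dhcr7 by 1.15, Stard4 by 0.85, Acss2 by 0.74 and Acly by 0.57. The call of Acss2 was lost under 6 of 11 alternatives and that of Acly under 3. Median depth was 4488 UMIs per cell in Schwann cells and 9280 UMIs in fibroblasts, and its part in these differences was not tested. Of the list of elongation, desaturation and glyceride synthesis, 7 of 11 tested rose and 1 (Elovl5) fell.

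The Schwann group held 2 kinds of cell, and their comparison was added after the data had been seen. The 437 myelinating cells averaged 4851 CPM of Mbp, and the 639 non-myelinating cells 577 CPM of Scn7a. Summed cholesterol synthesis was 1058 and 973 CPM in myelinating cells of Mut1 and Mut2 and 849 and 819 CPM in those of WT1 and WT2, against 265 and 328 CPM in non-myelinating cells of Mut1 and Mut2 and 309 and 252 CPM in those of WT1 and WT2. In myelinating cells 13 genes rose and 3 fell of 19 tested, beside 19.5% of all genes tested called higher and 20.5% called lower, and 9 of the 10 cholesterol enzymes tested were among those that rose. The other 9 of the 28 genes did not pass the filter on low counts. Median depth was 4016 UMIs in myelinating and 4771 UMIs in non-myelinating cells. Markers of other cells differed as well: the 10 keratinocyte markers summed to 2495 to 2703 CPM in myelinating cells, against 946 to 1241 CPM in non-myelinating cells, with 0 at 0. The 8 melanocyte markers summed to 367 to 629 CPM in myelinating cells and 7.13 to 13.5 CPM in non-myelinating cells, with up to 7 at 0 in a library of either. The 10 macrophage markers summed to 10.2 to 16.4 CPM in myelinating cells and 505 to 1309.7 CPM in non-myelinating cells, with up to 9 and 6 at 0 in a library. The 10 blood endothelial markers summed to 32.3 to 44.9 CPM in myelinating cells and 812 to 1209.8 CPM in non-myelinating cells, with up to 4 at 0. The part of depth and of RNA of other cells in these differences was not tested.

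Hmgcs1 had 332, 277, 196 and 211 CPM in myelinating cells of Mut1, Mut2, WT1 and WT2, against 30.5, 37.7, 34.5 and 30.1 CPM in non-myelinating cells (log2 fold change 2.93, SE 0.15, edgeR adjusted p = 1.11e-11). Msmo1 had 230.5, 188, 191 and 152 CPM in myelinating cells and 21.2, 34.1, 22.3 and 19.7 CPM in non-myelinating cells (log2 fold change 2.98, SE 0.17, edgeR adjusted p = 3.57e-11). Srebf2 had 104, 115, 111 and 101 CPM in myelinating cells and 48.0, 35.3, 44.7 and 45.2 CPM in non-myelinating cells (log2 fold change 1.30, SE 0.16, edgeR adjusted p = 1.63e-06). These are the 3 genes whose promoter windows are printed above, and the groups overlapped in none of them. The other rises were Fdft1 by 2.99, Idi1 by 2.75, Elovl6 by 2.33, Sqle by 1.83, Sc5d by 1.61, Fdps by 1.45, Cyp51 by 1.02, Insig1 by 0.81 and Pmvk by 0.65. Of these, Idi1, Elovl6, Sc5d, Cyp51, Insig1 and Pmvk had no TCACNCCA in their windows, and Fdft1, Sqle and Fdps had no window. A link between the element and the rises was not tested. The count of 16 genes called between the kinds of Schwann cell was 13 with DESeq2. The call of Pmvk was lost under 6 of 11 alternatives and that of Insig1 under 5, DESeq2 among them for both.

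The desaturases differed in direction between the kinds of Schwann cell. Scd2 had 424, 461, 695 and 555 CPM in myelinating cells and 136, 134, 138 and 125 CPM in non-myelinating cells (log2 fold change 1.98, SE 0.12, edgeR adjusted p = 4.40e-11). Scd1 had 220.3, 193, 308 and 275 CPM in myelinating cells and 540.2, 484, 669 and 569.7 CPM in non-myelinating cells (log2 fold change -1.19, SE 0.09, edgeR adjusted p = 4.21e-09). No library of one kind reached the range of the other in either gene. Ebp had 18.4, 28.2, 15.9 and 30.4 CPM in myelinating cells and 84.95, 58.4, 84.3 and 74.1 CPM in non-myelinating cells (log2 fold change -1.67, SE 0.23, edgeR adjusted p = 6.57e-06), and Fasn fell by 0.62 (SE 0.20). The call of Fasn was lost with DESeq2, with a fold minimum of 1 and without Mut2. Of 8 genes tested in the list of elongation, desaturation and glyceride synthesis, 6 rose and 0 fell, beside 19.5% of all genes tested called higher and 20.5% called lower. Among them Fa2h, which makes hydroxylated fatty acids, had 69.4, 82.3, 103 and 106 CPM in myelinating cells and 0, 0, 0 and 1.16 CPM in non-myelinating cells. Fa2h passed the filter on low counts only through myelinating cells, so its rise is given as a description.

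**Figure D3:**
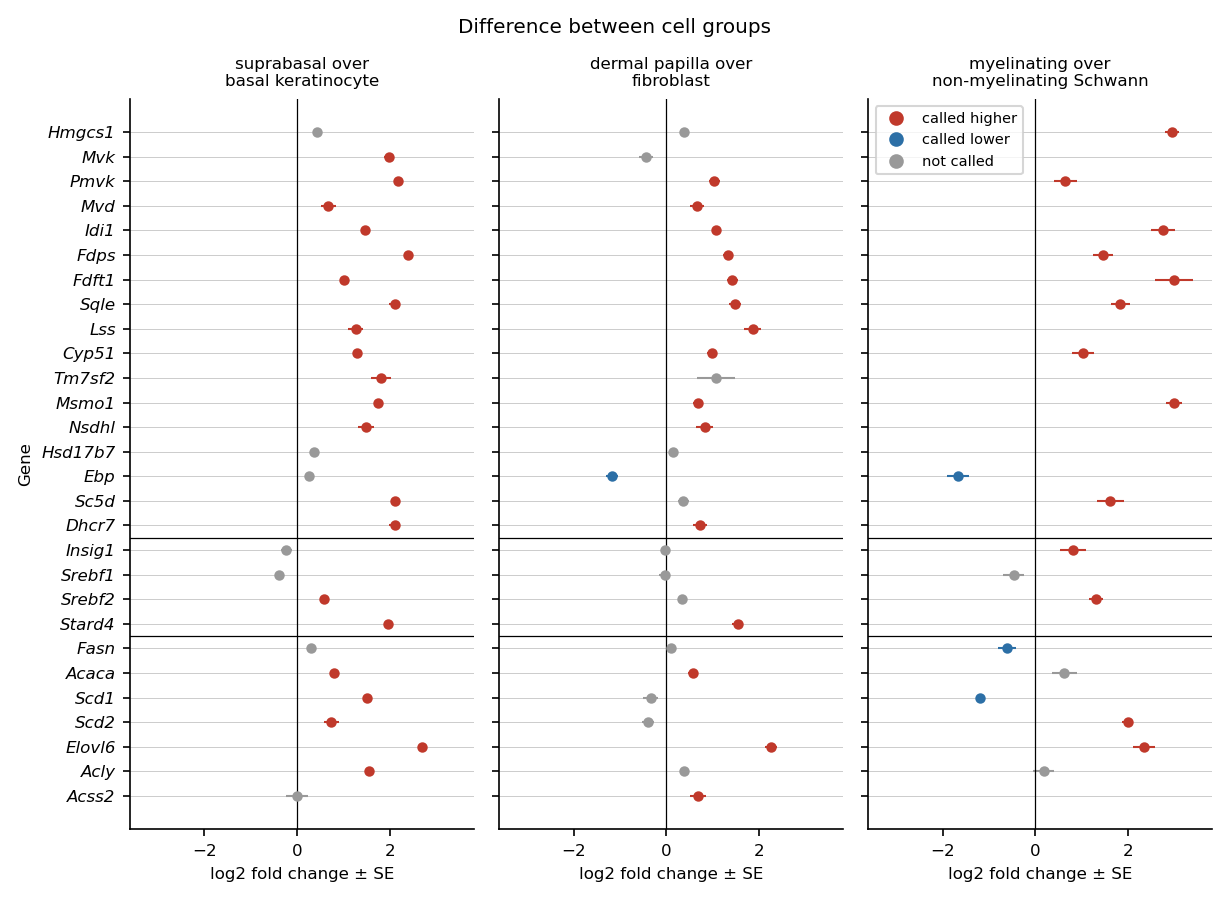
Log2 fold change (points) with SE (bars) of each gene between cell groups in 3 comparisons; red and blue mark genes called higher and lower in the group named first, grey those not called, and rows without a point were not tested. Of the 28 genes, 21 rose in suprabasal keratinocytes and 15 in dermal papilla cells, and 13 of 19 tested rose in myelinating Schwann cells, while Ebp fell in the papilla and in myelinating cells.

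**Figure D4:**
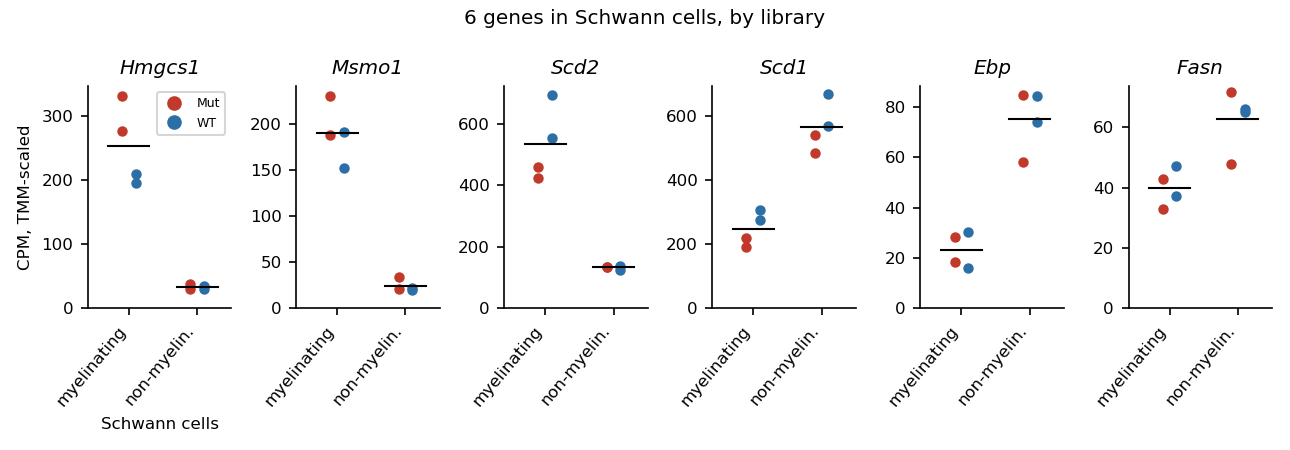
TMM-scaled CPM of 6 genes in myelinating (left) and non-myelinating (right) Schwann cells, with 1 point per library (Mut red, WT blue) and a bar at the mean of 4. Hmgcs1, Msmo1 and Scd2 are higher in myelinating cells, and Scd1, Ebp and Fasn in non-myelinating cells.

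Genotype was compared within each of the 17 groups, Mut over WT, with 2 libraries a side. In dermal papilla cells 9 of the 28 genes fell in Mut and 1 rose, beside 5.71% of all genes tested called lower and 7.33% called higher. The median log2 fold change was -0.33 over the 28 genes, and 25 of the 28 values were negative. Lss had 7.91 and 9.41 CPM in Mut1 and Mut2, against 22.5 and 25.5 CPM in WT1 and WT2 (log2 fold change -1.46, SE 0.20, edgeR adjusted p = 1.17e-04). Nsdhl had 7.47 and 8.99 CPM in Mut and 15.2 and 21.1 CPM in WT (log2 fold change -1.13, SE 0.23, edgeR adjusted p = 0.00321). Fdps had 95.6 and 81.7 CPM in Mut and 133 and 162 CPM in WT (log2 fold change -0.73, SE 0.11, edgeR adjusted p = 3.40e-04). In these 3 genes both Mut libraries lay below both WT libraries. Fdft1 had 34.1 and 32.1 CPM in Mut and 51.9 and 51.9 CPM in WT (log2 fold change -0.65, SE 0.13, edgeR adjusted p = 0.00191).

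The remaining falls in Mut papilla cells were Mvk by 0.96, Pmvk by 0.62, Elovl6 by 0.56, Stard4 by 0.55 and Srebf1 by 0.51. Ebp rose, with 29.2 and 28.2 CPM in Mut and 20.6 and 19.8 CPM in WT (log2 fold change 0.50, SE 0.16, edgeR adjusted p = 0.0339). Sqle was not called, with 127 and 105 CPM in Mut and 99.6 and 95.6 CPM in WT (log2 fold change 0.25, SE 0.11, edgeR adjusted p = 0.132). Lss and Nsdhl were called under all 15 alternatives tried, and Fdps and Fdft1 under all but a fold minimum of 1. The count of 10 was 5 with DESeq2, 5 without the filter on low counts and 5 without WT2. Without WT2, Mvk, Pmvk, Elovl6, Stard4 and Ebp were not called. Of the 15 alternatives, Ebp was lost under 8 and Srebf1 under 7, among them DESeq2 and the stricter gate for both.

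Other measures moved with genotype in the papilla. Papilla cells numbered 498 and 496 in Mut1 and Mut2, against 171 and 181 in WT1 and WT2, and their median depth was 6634 and 6404.5 UMIs in Mut, against 10093 and 9823 UMIs in WT. The 12 papilla markers summed to 3538 and 3585 CPM in Mut and 2854 and 2891 CPM in WT, with 0 of them at 0 in any library. The 12 fibroblast markers summed to 3197 and 2947 CPM in Mut and 2523 and 2363 CPM in WT, and the 10 keratinocyte markers to 908 and 919.7 CPM in Mut and 1365 and 1204 CPM in WT, again with 0 at 0. The 10 sebaceous gland markers summed to 269 and 269.9 CPM in Mut and 193 and 124 CPM in WT, with up to 3 at 0 in a library. The 9 dermal sheath markers summed to 155 and 145 CPM in Mut and 57.2 and 65.3 CPM in WT, with up to 1 at 0, and the 9 upper follicle markers to 259 and 407 CPM in Mut and 178 and 161 CPM in WT, with up to 2 at 0. The part of cell number, depth and RNA of other cells in the genotype differences was not tested. In 3 clusters at least 0.9 of the cells came from 1 genotype, which was Mut in each. They were a dermal papilla cluster (854 Mut and 1 WT cells), a fibroblast cluster (608 Mut and 22 WT cells) and an unnamed cluster (137 Mut and 5 WT cells). Without these clusters, 13 synthesis genes were called in the papilla, and the calls of Elovl6 and Srebf1 were lost. The part of this composition in the genotype differences was not tested further.

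In fibroblasts 8 genes fell in Mut and 0 rose of 27 tested, beside 1.62% of all genes tested called lower and 2.23% called higher. All 27 log2 fold changes were negative, with a median of -0.35 against -0.01 over all genes tested. Scd2 had 68.0 and 69.7 CPM in Mut1 and Mut2, against 116 and 108 CPM in WT1 and WT2 (log2 fold change -0.70, SE 0.07, edgeR adjusted p = 1.77e-05). Scd1 had 35.4 and 35.8 CPM in Mut and 55.3 and 69.1 CPM in WT (log2 fold change -0.81, SE 0.10, edgeR adjusted p = 1.65e-04). Fdps had 26.8 and 29.0 CPM in Mut and 48.0 and 43.5 CPM in WT (log2 fold change -0.71, SE 0.09, edgeR adjusted p = 2.16e-04). Both Mut libraries lay below both WT libraries in each. The other falls were Lss by 0.94, Fdft1 by 0.79, Idi1 by 0.60, Mvk by 0.56 and Cyp51 by 0.53. Of 15 alternatives, Lss was lost under 9 and Mvk under 8. Without Mut1, and likewise without Mut2, Scd2 was the 1 gene still called; with DESeq2 the count was 6, and without the clusters of 1 genotype it was 4. The median depth of fibroblasts was 10245 and 9794.5 UMIs in Mut, against 8156 and 8801.5 UMIs in WT. Their 10 keratinocyte markers summed to 772 and 745 CPM in Mut and 837 and 1015 CPM in WT, with 0 at 0. Their 10 sebaceous gland markers summed to 263 and 265 CPM in Mut and 186 and 193 CPM in WT, with up to 4 at 0, and their 9 pericyte markers to 271 and 277 CPM in Mut and 357 and 347 CPM in WT, with up to 1 at 0. The part of these in the differences was not tested.

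Of 15 genes of sterol sensing, uptake and efflux, the exporter Abca1 rose in Mut papilla cells (log2 fold change 0.59, SE 0.12, edgeR adjusted p = 0.00298) and the exporter Abcg1 in Mut fibroblasts (log2 fold change 0.51, SE 0.12, edgeR adjusted p = 0.0136), and 0 fell in either group. Each is 1 of 15 tested, beside 7.33% of all genes tested called higher in the papilla and 2.23% in fibroblasts, so these counts do not set the list apart. Of the list of elongation, desaturation and glyceride synthesis, edgeR called 0 of 11 tested in either group. Of the barrier lipid list, the ceramide synthase Cers4 rose by 0.57 in Mut papilla cells, 1 of 10 tested, which is near the same 7.33%.

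**Figure D5:**
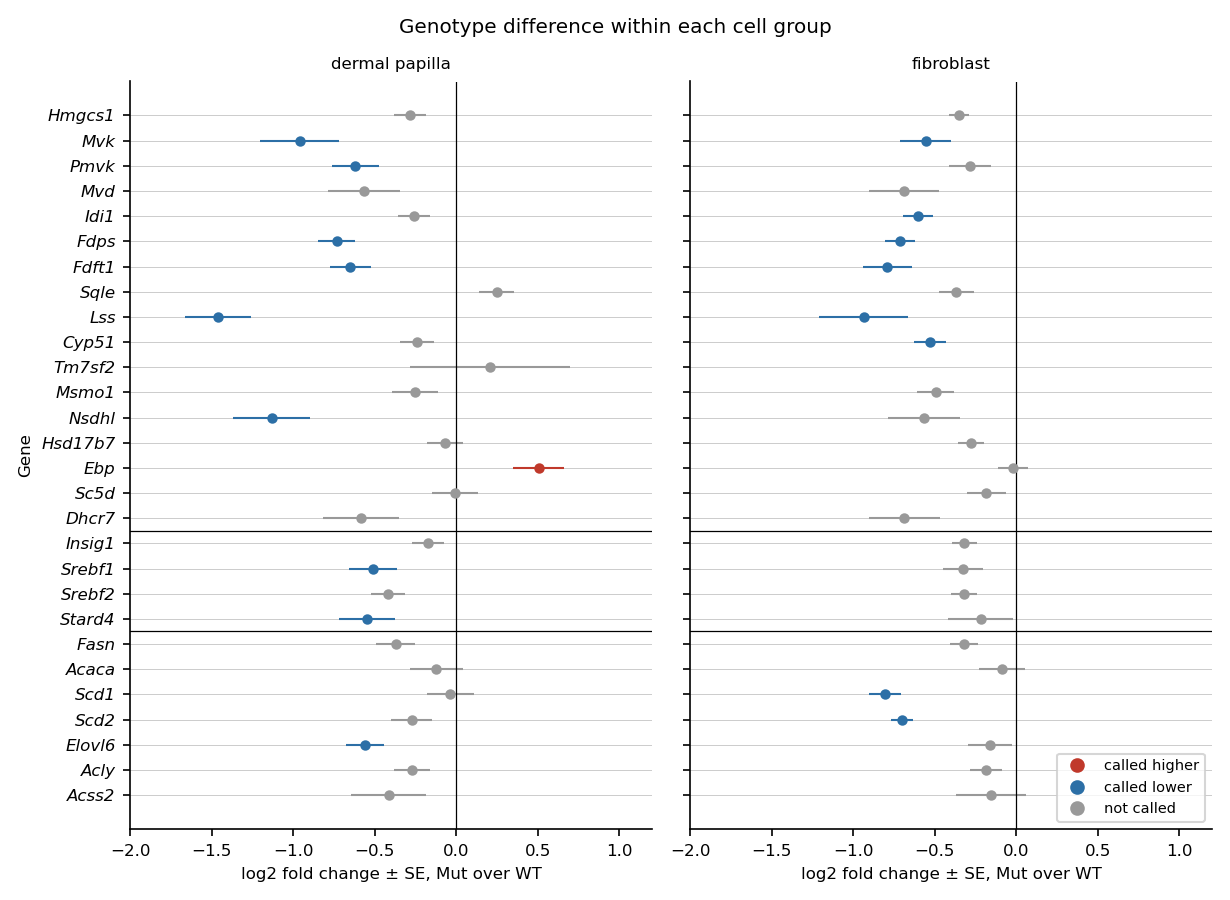
Log2 fold change, Mut over WT, with SE (bars) of each gene in dermal papilla cells (left) and fibroblasts (right); red and blue mark genes called higher and lower in Mut and grey those not called. Points lie left of 0 for 25 of 28 genes in the papilla and for 27 of 27 tested in fibroblasts.

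Whether the genotype effect differed between groups was tested as an interaction for 2 pairs. The library was not a block here, so sums of both cell groups from the same library were treated as independent. Between dermal papilla cells and fibroblasts, 2 of 28 genes were called higher and 0 lower, beside 4.98% of all 13200 genes tested called higher and 3.22% called lower, so that the members' count was near the background. These were Sqle (difference of log2 fold changes, papilla minus fibroblast, 0.63, SE 0.16, edgeR adjusted p = 0.0154) and Scd1 (0.79, SE 0.18, edgeR adjusted p = 0.00835). Sqle had a log2 fold change of 0.25 in the papilla and -0.37 in fibroblasts, called in neither, and Scd1 had -0.04 in the papilla, not called, and -0.81 in fibroblasts. Sqle was lost without Mut1 or WT1, and Scd1 without Mut1 or Mut2, so that the count was 0 without Mut1 and 1 without Mut2. Fdps, Fdft1, Lss and Mvk, which fell in both groups, were not called in this test. Between suprabasal and basal keratinocytes edgeR called 0 of 28 genes, beside 0.484% of all genes tested. At an unadjusted p under 0.05 there were 8, with no share of all genes at that looser threshold to set beside them. DESeq2 was not run on this test.

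Bulge keratinocytes had 3 genes lower of 26 tested in Mut, beside 1.74% of all genes tested called lower and 0.540% called higher. Mvd had 6.85 and 3.08 CPM in Mut and 18.9 and 16.3 CPM in WT (log2 fold change -1.83, SE 0.34, edgeR adjusted p = 0.00686), and falls were called for Idi1 by 0.64 and Fdft1 by 0.61. DESeq2 called 0 genes here, and the count was 0 without Mut2 and 5 without WT2. Suprabasal keratinocytes had 2 genes lower of 28, beside 1.19% of all genes tested called lower and 2.09% called higher. Scd2 had 2.43 and 3.05 CPM in Mut and 5.26 and 6.46 CPM in WT (log2 fold change -1.09, SE 0.19, edgeR adjusted p = 0.00105), and Mvd fell by 0.59, a call lost with DESeq2, without Mut1 and without WT2; the count was 1 without WT2.

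In epidermal T cells 1 gene rose and 2 fell of 24 in Mut, beside 2.74% of all genes tested called lower and 2.45% called higher. Sqle had 104 and 100.1 CPM in Mut and 70.3 and 60.6 CPM in WT (log2 fold change 0.65, SE 0.10, edgeR adjusted p = 1.09e-05), with both Mut libraries above both WT libraries. Falls were called for Scd1 by 0.90 and Scd2 by 0.77, and DESeq2 called 1 of the 3. Elovl6, so abundant in these cells, had 438 and 410.0 CPM in Mut and 519.8 and 511 CPM in WT, below the fold minimum (log2 fold change -0.28, SE 0.06, edgeR adjusted p = 5.32e-04). Epidermal T cells numbered 532 and 580 in Mut1 and Mut2, against 940 and 1009 in WT1 and WT2. Their 12 fibroblast markers summed to 674 and 863 CPM in Mut and 408 and 401 CPM in WT, with 0 at 0, and their 12 papilla markers to 67.2 and 79.8 CPM in Mut and 33.3 and 39.6 CPM in WT, with up to 5 at 0. The part of cell number and of RNA of other cells in these differences was not tested. Single falls were called for Scd1 in basal keratinocytes (by 0.54, 1 of 28, beside 2.36% of all genes called), Pmvk in dermal sheath cells (by 1.32, 1 of 21, beside 4.13%) and Fdft1 in activated basal keratinocytes (by 0.57, 1 of 26, beside 2.48%). Scd1 was lost without Mut2, Pmvk without Mut1 or Mut2, and Fdft1 without any 1 of the 4 libraries. The basal count was 3 without Mut1 or WT2, and the sheath count 2 without WT1 and 3 without WT2.

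In the other 9 groups edgeR and DESeq2 each called 0 synthesis genes between genotypes. The share of all genes called was 0.0765% in Langerhans cells, 0.335% in Schwann cells, 1.34% in T cells, 0.154% in blood endothelium, 2.07% in lymphatic endothelium, 0.0846% in cycling keratinocytes, 0.855% in upper follicle keratinocytes and 0 in melanocytes and pericytes. At an unadjusted p under 0.05 there were 9 of 26 genes in cycling keratinocytes, 9 of 27 in upper follicle keratinocytes, 5 of 20 in Schwann cells, 4 of 25 in T cells, 1 of 14 in Langerhans cells, 1 of 3 in pericytes and 0 in melanocytes and both endothelial groups. The shares above are for the call rule. No share of all genes at this looser threshold is given, so these counts cannot be set against a background. Upper follicle keratinocytes had 6 calls without Mut1, 2 without Mut2, 1 without WT1 and 1 without WT2, and cycling keratinocytes had 2 without Mut1 and 3 without Mut2. T cells had 1 without Mut2 and 1 without WT2, and Schwann cells 1 without WT2. Low counts left 13 of the 28 genes for testing in each endothelial group, 6 in melanocytes and 3 in pericytes.

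The sorted library held 432 GFP-positive cells with 1118686 UMIs, taken as 1 sample of another chemistry and without a test. All 28 genes were detected, from 3 UMIs for Tm7sf2 to 93 UMIs for Hmgcs1. With exact 95% Poisson intervals, which cover counting error only, Hmgcs1 stood at 83.1 CPM (67.1 to 102), Fdps at 76.9 CPM (61.5 to 94.9) and Elovl6 at 56.3 CPM (43.3 to 72.1). Insig1 stood at 42.9 CPM (31.6 to 56.9), Ebp at 59.0 CPM (45.6 to 75.1) and Lss at 5.36 CPM (1.97 to 11.7).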

How the data were processed

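Single-cell RNA-seq of dorsal skin was analysed in 5 libraries: Mut1, Mut2, WT1 and WT2, unsorted, and 1 library of sorted GFP-positive cells. The deposited values are UMI counts per gene and cell, with no normalization; the unsorted files were written by Cell Ranger 3.1.0, per the file headers. The submitters' processing notes also name Cell Ranger 2.1.1, Seurat 3.2.2, Scanpy 1.6.0 and the mouse build GRCm38 (mm10), without saying which step used which. Libraries held 152475023 and 147245343 UMIs in Mut1 and Mut2, 163044933 and 171197845 UMIs in WT1 and WT2, and 1138206 UMIs in the sorted library.

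Cells with 500 to 8000 genes (at least 300 in the sorted library) and at most 10% mitochondrial UMIs were kept. Cells with a scrublet doublet score above 0.25 (expected rate 0.08), and barcodes found in more than 1 unsorted library, were removed. Each cell was scored on 27 lists of marker genes and assigned where its best score stood clear of the others; 5.33% of the 32505 kept unsorted cells scored for several types and 12.7% were keratinocytes without a state, and both were left out. Counts were summed per library and group. Levels are CPM of those sums. Comparisons used edgeR 4.0.16 (R 4.3.3) with TMM scaling, filterByExpr and the quasi-likelihood test, without a block for genotype and with the library as a block between groups of cells. The interaction test had no library block, so it treated sums of different cell groups from the same library as independent. The sebaceous gland against upper follicle comparison could not be fitted, for lack of cells. The fits were tested on simulated data. DESeq2 1.42.0, no filter on low counts, other fold minimums, RLE scaling, a replicate block, each library left out, a stricter gate, Leiden clusters in place of the gate, a lower mitochondrial limit (5%), shared barcodes kept and clusters of 1 genotype removed were the alternatives; the last 2 were chosen after seeing the data. Preparation and analysis of cells used Python 3.11.15 with scanpy 1.11.5.

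The members and lists were chosen with earlier results of these data known. Values per library are given for the genes called in a comparison or with the largest fold changes, up to 8 a comparison, and the others by their fold change. Gene positions are those of the annotation on GRCm38.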

Additional observations from a re-analysis of the deposited data

Results flagged for a closer look

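For 2 genes the genotype effect (Mut over WT) differed between dermal papilla cells and fibroblasts in a test of the difference itself, edgeR's interaction term, without a library block, over all 13200 genes tested. That is 2 of 28 genes, beside 4.98% of all genes tested called higher and 3.22% called lower, so the count is near the background. The difference of log2 fold changes, papilla minus fibroblast, was 0.63 for Sqle (SE 0.16, edgeR adjusted p = 0.0154). Sqle had 127 and 105 CPM in Mut papilla cells, against 99.6 and 95.6 CPM in WT papilla cells, and 27.9 and 25.1 CPM in Mut fibroblasts, against 37.6 and 30.8 CPM in WT fibroblasts. The difference was 0.79 for Scd1 (SE 0.18, edgeR adjusted p = 0.00835). Scd1 had 43.7 and 49.4 CPM in Mut papilla cells, against 40.7 and 55.0 CPM in WT papilla cells, and 35.4 and 35.8 CPM in Mut fibroblasts, against 55.3 and 69.1 CPM in WT fibroblasts. Each call held under 4 of 7 alternatives: Sqle was lost without Mut1, without WT1 and without the clusters of 1 genotype, and Scd1 without Mut1, without Mut2 and without those clusters.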

How the results depend on the processing

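Of 1672 alternative values for 144 single calls (a gene in a comparison), 1433 kept their direction and call, 238 kept the direction and lost the call, and 1 reversed: Sc5d in upper follicle over basal keratinocytes, 0.0511 with Leiden clusters (the cause was not tested). RLE scaling lost 0 of 144 calls. Calls of genotype differences became, with DESeq2, 5 in the papilla, 1 in suprabasal, 1 in epidermal T, and 0 in bulge, activated basal and sheath cells. Without the filter on low counts they were 5 in the papilla, 1 in suprabasal, 0 in basal, 2 in sheath and 3 in upper follicle cells. With a fold minimum of 1 they were 2 in the papilla, 1 in bulge, 1 in suprabasal, and 0 in fibroblasts, activated basal, basal and epidermal T cells. With no fold minimum they were 15 in fibroblasts, 7 in suprabasal, 7 in epidermal T and 3 in basal cells. With Leiden clusters they were 6 in bulge, 3 in basal and 2 in cycling cells. With at most 5% mitochondrial UMIs they were 1 in epidermal T, and 0 in activated basal, basal and sheath cells. The stricter gate gave 1 in T cells and 0 in sheath cells, shared barcodes kept gave 2 in upper follicle cells, and removal of clusters of 1 genotype gave 4 in fibroblasts, 3 in basal and 0 in sheath cells. Between groups, a fold minimum of 1 left 4 calls for activated basal, 0 for cycling, 4 for upper follicle, 10 for bulge, 8 for Schwann and 9 for papilla cells. DESeq2 left 0 for cycling cells and 5 for melanocytes, and Leiden clusters 1 for cycling cells. With each library left out in turn, genotype calls ranged from 5 to 10 in the papilla, 1 to 9 in fibroblasts, 0 to 5 in bulge, 1 to 2 in suprabasal, 2 to 4 in epidermal T, 1 to 3 in basal, 0 to 3 in sheath, 0 to 3 in cycling, 1 to 6 in upper follicle, 0 to 1 in T and 0 to 1 in Schwann cells, and were 0 in activated basal cells. Between groups they ranged from 0 to 2 for cycling cells, 5 to 6 for melanocytes, 16 to 18 for papilla, 11 to 14 for Schwann, 16 to 17 for bulge, 8 to 11 for upper follicle, 9 to 10 for activated basal and 14 to 16 for myelinating cells. For the interaction they ranged from 0 to 3 for the papilla and 0 to 1 for suprabasal cells. With a mean over each cell's own CPM, summed cholesterol levels were 1015 CPM in suprabasal cells and 418 CPM in melanocytes. Summed fatty acid levels were then 721 CPM in non-myelinating Schwann, 238 CPM in suprabasal, 145 CPM in blood endothelial, 125 CPM in Langerhans and 86.9 CPM in activated basal cells, and regulator levels 137 CPM in Schwann and 97.5 CPM in blood endothelial cells. Deviations of same-numbered libraries from the group means had correlations of -0.08 to 0.27, highest in melanocytes (0.27) and cycling keratinocytes (0.21). Whether the replicate numbers pair libraries was not tested further. With the replicate block, T cells had 1 genotype call in place of 0 and basal keratinocytes 2 in place of 1, and 0 of 31 single calls were lost. Leiden clusters gave no value for activated basal and sheath cells, the stricter gate none for melanocytes, and the lower mitochondrial limit none for Langerhans cells, melanocytes and pericytes.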
